A study of Mus musculus with 8 samples.

Results

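The antiviral effectors described here are 10 genes whose products act on viral particles, viral nucleic acids or the nucleotides that viruses need: the Mx GTPases Mx1 and Mx2, viperin (Rsad2) and the neighbouring nucleotide kinase Cmpk2, tetherin (Bst2), the double-stranded RNA-binding enzymes Eif2ak2 and Adar, the exonuclease Isg20, the deoxynucleotide phosphohydrolase Samhd1 and the cytidine deaminase Apobec3. They were taken by name from the 30284 mouse genes with a value, and all 10 were among the 13009 genes tested. Male C57BL6 mice aged 7 weeks were stimulated in the peritoneal cavity and their macrophages, which the labels call peripheral, were taken, and 8 RNA sequencing libraries were made from total RNA, 2 in each of 4 groups. The groups were IFNb (interferon beta) for 4 h followed by LPS (lipopolysaccharide, a component of the bacterial outer membrane) for 4 h, written LPS+IFNb; LPS for 4 h; IFNb for 4 h; and saline for 4 h. The LPS+IFNb libraries were therefore taken 8 h after IFNb, and no group received IFNb and then saline, or saline and then LPS. Nothing in the labels ties the 2 libraries of a group to different animals, and the p-values therefore cover only how far these libraries lie apart, which may be technical.

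Interferon beta binds the receptor chains Ifnar1 and Ifnar2, which activate the kinases Jak1 and Tyk2 and through them a transcription factor complex called ISGF3. ISGF3 binds a DNA element, the interferon-stimulated response element (ISRE), in the promoters of interferon-stimulated genes. LPS signals through the receptor TLR4, which activates NF-kB and, through a second adaptor, Irf3 and the interferon beta gene itself, so macrophages given LPS also receive an interferon signal with a delay.

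The promoter sequences of the members are shown because the mRNAs of all 10 rose over saline with each agent, though by unlike amounts. A further reason is that the ISRE is the element through which interferon is known to act on this class of gene. RefSeq promoter windows on GRCm38.p6, from 250 bases before to 50 bases after a transcription start, were matched for 8 of the 10 members, 13 windows in all. Mx1 and Mx2 had no window and are named only. Each window was searched on both strands for the ISRE core (GAAA, any 2 bases, GAAA), the gamma-activated site or GAS (TTC, any 3 bases, GAA), and the NF-kB motif (GGGA, any 2 bases, TTCC). An exact ISRE core was present in windows of 4 of the 8 members (Bst2, Rsad2, Apobec3 and Eif2ak2), 4 of 13 member windows (30.8%), against 3.44% of all 32851 windows. A GAS was present in windows of 5 of the 8 members, 5 of 13 member windows (38.5%), against 8.30% of all windows, and it overlapped an ISRE match in Bst2 and in Adar. The NF-kB motif was present for Isg20 only, in 1 of 13 member windows (7.69%), against 1.47% of all windows. With 1 mismatch allowed, 9 of 13 member windows (69.2%) and 35.4% of all windows held an ISRE match, so a near match alone says little. Offsets count from the RefSeq start, and 4 short stretches are given first, with the motif in capitals. In Eif2ak2 the ISRE core lay at +19. In Apobec3 it lay at -140 and is read on the opposite strand. Adar had no exact core, and the stretch shown is a match with 1 mismatch at +28 of its downstream start. In Isg20 the NF-kB motif lay at -109 of the start used by Isg20-201.
Eif2ak2, ISRE, chr17:78882535-78882564 (- strand): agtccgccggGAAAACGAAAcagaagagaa
Apobec3, ISRE, chr15:79892258-79892287 (+ strand): catcagttagTTTCCCTTTCtctttgcgat
Adar, ISRE, chr3:89730735-89730764 (+ strand): gccttttcaaGGAAACGAAAgtgaactctg
Isg20, NF-kB, chr7:78913646-78913675 (+ strand): cagaagttgtGGGACCTTCCccaggctcca
The 250 bases before the start are given whole for 3 members that differ in their matches, with exact ISRE cores in capitals. Bst2 held 2 overlapping cores at -130 and -124, Rsad2 held 1 at -120 on the opposite strand, and Samhd1 held no ISRE match but had a GAS at -235, which is not capitalised.
Bst2, chr8:71537473-71537722 (- strand): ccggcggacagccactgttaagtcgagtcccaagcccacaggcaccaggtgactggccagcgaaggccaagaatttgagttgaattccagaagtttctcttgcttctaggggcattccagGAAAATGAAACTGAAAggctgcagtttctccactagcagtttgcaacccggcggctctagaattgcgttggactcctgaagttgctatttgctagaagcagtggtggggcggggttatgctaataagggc
Rsad2, chr12:26456453-26456702 (- strand): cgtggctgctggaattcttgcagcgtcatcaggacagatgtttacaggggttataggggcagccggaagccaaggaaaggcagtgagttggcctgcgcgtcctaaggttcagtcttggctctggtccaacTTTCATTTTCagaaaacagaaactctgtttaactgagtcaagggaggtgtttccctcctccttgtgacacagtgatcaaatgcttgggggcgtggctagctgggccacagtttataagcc
Samhd1, chr2:157135097-157135346 (- strand): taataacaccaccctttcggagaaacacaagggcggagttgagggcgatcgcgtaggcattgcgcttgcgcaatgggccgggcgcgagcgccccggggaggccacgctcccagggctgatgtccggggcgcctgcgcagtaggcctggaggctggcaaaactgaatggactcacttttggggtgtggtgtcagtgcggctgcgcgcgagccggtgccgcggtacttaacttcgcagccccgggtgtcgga
A match is a run of letters, not a measured binding site, and the absence of a match concerns these windows alone.

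The deposited unit was TPM, a length-corrected share of a library with the same total in each, so levels of different genes can be set side by side but depth is unknown and no counting error can be given. Across genes, the correlation between libraries was 0.971 to 0.983 within a group and 0.823 to 0.951 between groups. Mitochondrial transcripts made up 2.52% to 3.93% of TPM, and 46998 to 53928 transcripts were above 0. Of the macrophage genes listed, Lyz2 at 10160 to 17557 TPM and Cd68 at 2694 to 3367 TPM were high in every library. Adgre1 had 189 to 307 TPM, Itgam 149 to 250 TPM and Csf1r 137 to 324 TPM. Mertk ran from 17.1 to 83.3 TPM over the libraries, Fcgr1 from 48.0 to 739 TPM and Cd14 from 52.2 to 1829 TPM. The 5 markers of the large resident peritoneal macrophage summed to 29.3 to 55.1 TPM; Gata6, which defines that cell, was at 2.11 TPM or less and Timd4 at 3.37 TPM or less, while Prg4 reached 23.8, Icam2 19.6 and Alox15 14.6 TPM. In bulk RNA a change in how many cells of a type were present and a change in RNA per cell cannot be told apart. Differences below are of log2(TPM + 1) between group means, ± SE, from limma fitted to all 8 libraries, and p-values are adjusted over the 13009 genes; a gene is said to rise or fall at an adjusted p under 0.05.

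The 10 members together made up 1.43% and 1.43% of TPM in the LPS+IFNb libraries, 0.493% and 0.470% in the LPS libraries and 1.68% and 1.61% in the IFNb libraries, against 0.0491% and 0.0549% in the saline libraries. In saline the order of levels ran from Samhd1, at 291 ± 30.0 TPM (SD, n = 2), through Bst2 at 90.6 ± 11.6, Apobec3 at 59.2 ± 13.1 and Adar at 24.5 ± 7.88 TPM, down to Mx2 at 1.59 ± 1.09 TPM. With IFNb the order was led by Rsad2 at 6878 ± 216 TPM, then Samhd1 at 3111 ± 73.4 and Cmpk2 at 2855 ± 257 TPM, and Adar was lowest at 184 ± 0.700 TPM. With LPS Rsad2 again led, at 1825 ± 234 TPM, followed by Mx1 and Mx2, and Isg20 was lowest at 53.9 ± 6.0 TPM. Neighbours whose libraries overlapped were Adar and Rsad2 in saline and Cmpk2 and Samhd1 with LPS. In these gene sums Samhd1 thus had the highest level of the 10 in saline, and Rsad2 had it in all 3 stimulated groups. Summed over protein-coding transcripts only and rescaled, Samhd1 had 144 and 134 TPM in saline, overlapping Bst2 at 141 and 119 TPM. With IFNb that sum put Cmpk2, at a mean of 3926 TPM, above Samhd1 at 1651 TPM. Rsad2 led the stimulated groups in that sum too.

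**Figure D1:**
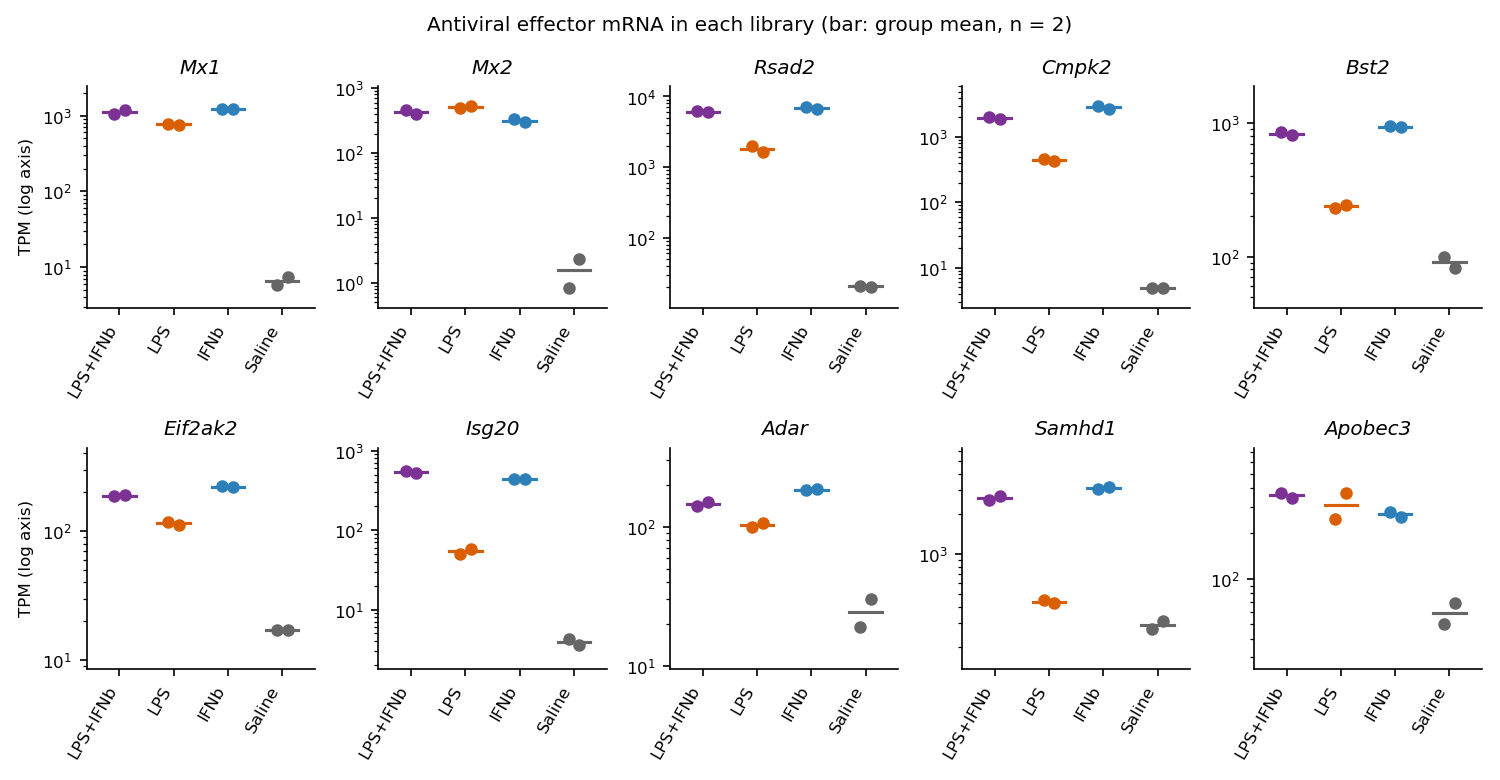
TPM of each of the 10 members in every library on a log axis, with a panel per gene, a point per library and a bar at the group mean (n = 2), in the order LPS+IFNb, LPS, IFNb and saline. The saline libraries lie below all 6 stimulated libraries in each panel, and the LPS libraries lie below the IFNb libraries for 8 genes, the exceptions being Mx2 and Apobec3.

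LPS alone and IFNb alone each raised all 10 members over saline. Against saline, LPS raised them by a median log2 difference of 3.09, where the median over all genes was -0.38, and IFNb by a median of 5.07, where the median over all genes was -0.37. Of all genes, 12.8% were higher with LPS and 41.3% lower; with IFNb 13.0% were higher and 38.6% lower. When libraries were instead scaled by their median ratio, these shares became 20.0% and 16.7% for LPS and 17.8% and 14.1% for IFNb, and all 10 members still rose in both comparisons. That scaling moved the median difference over all genes by 0.39 (LPS), 0.34 (IFNb) and 0.61 (LPS+IFNb) in the comparisons with saline. It moved it by 0.20 for LPS+IFNb set against LPS, 0.27 for LPS+IFNb set against IFNb, 0.06 for LPS set against IFNb and -0.12 for the interaction, and differences of that size are read below against it. The members spanned a wide range, from 0.58 (Samhd1) to 7.70 (Mx2) with LPS and from 2.18 (Apobec3) to 8.93 (Cmpk2) with IFNb. LPS+IFNb also raised all 10 over saline, where 15.2% of all genes were higher and 54.1% lower (26.6% and 24.9% after median-ratio scaling), with a median member difference of 5.08.

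The Mx proteins are dynamin-like GTPases that block the replication of viruses. In mice Mx1 acts from the nucleus, on influenza and related viruses, and Mx2 acts from the cytoplasm. C57BL/6 and most other laboratory strains are known to carry defective alleles of both. Mx1 stood at 1050 and 1171 TPM with LPS+IFNb, 786 and 755 TPM with LPS and 1215 and 1229 TPM with IFNb, against 5.83 and 7.33 TPM with saline. Its difference from saline was 6.68 ± 0.11 with LPS (adjusted p = 4.68e-07) and 7.34 ± 0.11 with IFNb (adjusted p = 2.41e-07). Mx1 was therefore scarce in saline and among the more abundant members in every stimulated group, with no overlap between stimulated and saline libraries. Mx2 had 457 and 395 TPM with LPS+IFNb, 493 and 540 TPM with LPS and 331 and 301 TPM with IFNb, against 0.825 and 2.36 TPM with saline. Its difference from saline was 7.70 ± 0.26 with LPS (adjusted p = 4.02e-06) and 7.00 ± 0.26 with IFNb (adjusted p = 5.34e-06). Mx2 passed the filter on low values through the stimulated libraries, and because saline was near 1 TPM these sizes depend on the pseudocount: with 0.1 in place of 1 they were 8.42 and 7.71. Mx2 was highest with LPS and lowest with IFNb among the stimulated groups, whereas Mx1 was highest with IFNb. The genes lie on chromosome 16 (GRCm38, Mx1 at 97447035 to 97462907 and Mx2 at 97535308 to 97560900), transcribed away from each other, 72400 bases apart with Fam3b and Gm9242 between them.

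Viperin, the product of Rsad2, is an endoplasmic reticulum enzyme that, in work on the human protein, converts CTP to a chain terminator of viral RNA synthesis, and Cmpk2 is a mitochondrial kinase of pyrimidine nucleotides. They lie side by side on chromosome 12 (GRCm38, Rsad2 at 26442746 to 26456452 and Cmpk2 at 26469204 to 26479837), transcribed away from each other, with 12751 bases and 0 annotated genes between them. Rsad2 reached 6131 and 6102 TPM with LPS+IFNb, 1991 and 1660 TPM with LPS and 7031 and 6725 TPM with IFNb, against 20.8 and 20.3 TPM with saline. Cmpk2 reached 1998 and 1876 TPM with LPS+IFNb, 466 and 426 TPM with LPS and 3036 and 2673 TPM with IFNb, against 4.84 and 4.85 TPM with saline. In the TPM as deposited the neighbours took the same order of groups, IFNb above LPS+IFNb above LPS above saline, without overlap between any pair of groups. Mx1, Bst2, Eif2ak2, Adar and Samhd1 took that order without overlap too, so it is not particular to the neighbours. For Rsad2 the step from IFNb to LPS+IFNb did not pass in limma (-0.17, adjusted p = 0.209) and turned to 0.16 after median-ratio scaling. Over saline, Rsad2 rose by 6.40 ± 0.10 with LPS (adjusted p = 3.22e-07) and by 8.32 ± 0.10 with IFNb (adjusted p = 1.01e-07). Cmpk2 rose by 6.26 ± 0.09 with LPS (adjusted p = 3.22e-07) and by 8.93 ± 0.09 with IFNb (adjusted p = 9.85e-08). In ratios of mean TPM to saline, Rsad2 was 88.7-fold higher with LPS and 334-fold higher with IFNb, and Cmpk2 was 92.1-fold higher with LPS and 589-fold higher with IFNb. The neighbours thus had like ratios with LPS and unlike ones with IFNb.

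Tetherin, encoded by Bst2, holds budding enveloped virions at the cell surface. Bst2 had 859 and 814 TPM with LPS+IFNb, 231 and 245 TPM with LPS and 955 and 933 TPM with IFNb, against 98.8 and 82.5 TPM with saline. It rose by 1.39 ± 0.10 with LPS (adjusted p = 0.000116) and by 3.37 ± 0.10 with IFNb (adjusted p = 1.85e-06). Bst2 was the second most abundant member in saline, and its rise with LPS was the second smallest of the 10. Bst2 is also a known marker of plasmacytoid dendritic cells, a blood-derived cell type. Of their 4 other markers listed, Siglech and Ccr9 were at 1.76 and 1.43 TPM or less in every library. Runx2 had 1.58 and 1.87 TPM with LPS+IFNb, 3.38 and 4.80 TPM with LPS and 2.56 and 2.70 TPM with IFNb, against 3.17 and 6.98 TPM with saline, so it was not higher in the stimulated groups. Tcf4, which is not restricted to those cells, had 73.6 and 80.5 TPM with LPS+IFNb, 27.0 and 33.6 TPM with LPS and 94.2 and 91.4 TPM with IFNb, against 18.4 and 23.1 TPM with saline.

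Eif2ak2 encodes PKR, which on binding double-stranded RNA phosphorylates the translation factor eIF2 alpha and halts protein synthesis, and Adar encodes the deaminase that converts adenosine to inosine in double-stranded RNA and keeps the cell's own RNA from being sensed as foreign. Eif2ak2 had 186 and 191 TPM with LPS+IFNb, 118 and 112 TPM with LPS and 223 and 221 TPM with IFNb, against 17.0 and 17.1 TPM with saline. Adar had 140 and 150 TPM with LPS+IFNb, 99.4 and 105 TPM with LPS and 184 and 185 TPM with IFNb, against 18.9 and 30.1 TPM with saline. In both genes the groups did not overlap and LPS brought the mRNA to a little over 50% of its IFNb level, 51.9% for Eif2ak2 and 55.5% for Adar. Eif2ak2 rose by 2.69 ± 0.07 with LPS (adjusted p = 1.57e-06) and by 3.63 ± 0.07 with IFNb (adjusted p = 3.96e-07). Adar rose by 2.06 ± 0.19 with LPS (adjusted p = 0.000326) and by 2.90 ± 0.19 with IFNb (adjusted p = 7.33e-05). The 2 saline libraries of Adar lay further apart than those of Eif2ak2, and its error was larger.

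The remaining members act on nucleic acids or their building blocks: Isg20 is an exonuclease that degrades single-stranded RNA, Samhd1 splits deoxynucleoside triphosphates and so, in human myeloid cells, starves reverse transcription, and Apobec3 deaminates cytidine in retroviral DNA. Isg20 had 547 and 518 TPM with LPS+IFNb, 49.6 and 58.1 TPM with LPS and 441 and 442 TPM with IFNb, against 4.24 and 3.54 TPM with saline. Samhd1 had 2547 and 2727 TPM with LPS+IFNb, 447 and 423 TPM with LPS and 3059 and 3163 TPM with IFNb, against 270 and 312 TPM with saline. Both genes were far higher in the 2 groups that received IFNb than with LPS alone, where Isg20 reached 12.2% and Samhd1 14.0% of the IFNb level. Isg20 rose by 3.49 ± 0.11 with LPS (adjusted p = 3.07e-06) and by 6.50 ± 0.11 with IFNb (adjusted p = 3.08e-07). Samhd1 rose by 0.58 ± 0.09 with LPS (adjusted p = 0.00247) and by 3.42 ± 0.09 with IFNb (adjusted p = 1.25e-06). The LPS change of Samhd1 is the smallest of the 20 differences between a member and saline under LPS alone or IFNb alone. Apobec3 had 373 and 347 TPM with LPS+IFNb, 249 and 370 TPM with LPS and 278 and 258 TPM with IFNb, against 50.0 and 68.5 TPM with saline. It rose by 2.35 ± 0.21 with LPS (adjusted p = 0.000284) and by 2.18 ± 0.21 with IFNb (adjusted p = 0.000417). The LPS libraries of Apobec3 were far apart and overlapped those of both other stimulated groups.

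**Figure D2:**
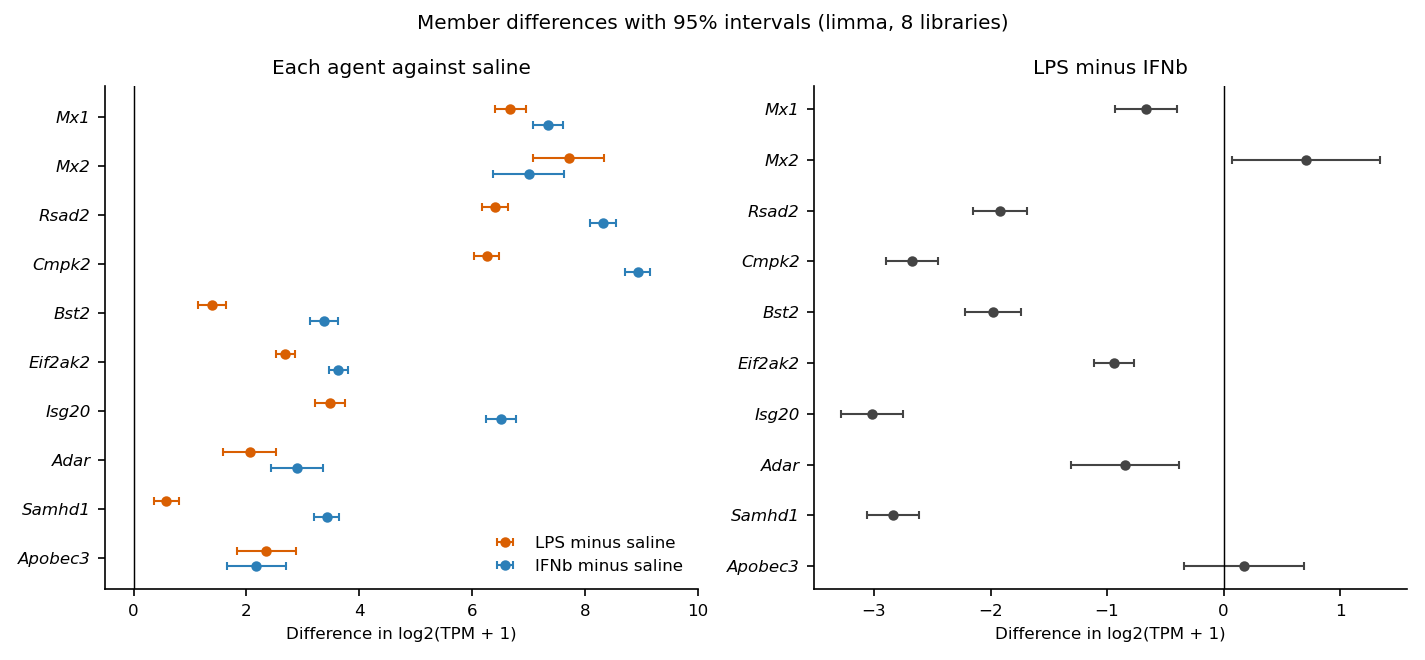
Differences in log2(TPM + 1) with 95% intervals for the 10 members, LPS and IFNb each minus saline on the left and LPS minus IFNb on the right. All intervals on the left lie above 0, and on the right 8 genes lie below 0 while the interval of Mx2 lies above 0 and that of Apobec3 spans 0.

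LPS against IFNb compares the 2 agents directly at 4 h, and 8 of the 10 members were lower with LPS. The median member difference was -1.43, against -0.06 over all genes, of which 16.6% were higher and 22.1% lower with LPS. The shortfall was largest for Isg20 (-3.02 ± 0.11), Samhd1 (-2.84 ± 0.09) and Cmpk2 (-2.67 ± 0.09), with adjusted p = 7.00e-06, 4.51e-06 and 5.55e-06. It was intermediate for Bst2 (-1.98 ± 0.10) and Rsad2 (-1.92 ± 0.10), with adjusted p = 2.41e-05 and 2.39e-05. It was smallest for Eif2ak2 (-0.94 ± 0.07, adjusted p = 0.000120), Adar (-0.84 ± 0.19, adjusted p = 0.0144) and Mx1 (-0.66 ± 0.11, adjusted p = 0.00387). Mx2 and Apobec3 passed in neither direction: Mx2 differed by 0.71 (95% interval 0.07 to 1.34, adjusted p = 0.0778) and Apobec3 by 0.18 (-0.34 to 0.69, adjusted p = 0.563). At an unadjusted p under 0.05, 1 member (Mx2) was higher and the same count of 8 was lower. The call of Adar was lost without either LPS or either IFNb library (adjusted p = 0.0717, 0.0544, 0.0651 and 0.0677 without LPS replicate 1, LPS replicate 2, IFNb replicate 1 and IFNb replicate 2), and Apobec3 turned to -0.11 without LPS replicate 2. Mx2 passed as higher with LPS under median-ratio scaling (0.78, adjusted p = 0.0261) and without saline replicate 1 or saline replicate 2 (adjusted p = 0.00397 and 0.00394).

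LPS+IFNb against LPS compares LPS given 4 h after IFNb with LPS alone, and 7 of the 10 members were higher while none passed as lower. No group received saline and then LPS, so the earlier IFNb and the longer treatment cannot be told apart. The median member difference was 1.23, against -0.22 over all genes, of which 10.8% were higher and 24.1% lower (14.4% and 9.90% after median-ratio scaling). Isg20 rose most (3.29 ± 0.11, adjusted p = 3.81e-05), followed by Samhd1 (2.60 ± 0.09, adjusted p = 3.89e-05), Cmpk2 (2.12 ± 0.09, adjusted p = 6.42e-05), Bst2 (1.81 ± 0.10, adjusted p = 0.000123) and Rsad2 (1.75 ± 0.10, adjusted p = 0.000123). Eif2ak2 rose by 0.71 ± 0.07 (adjusted p = 0.000946) and Mx1 by 0.52 ± 0.11 (adjusted p = 0.0129). Adar differed by 0.50 (95% interval 0.03 to 0.96, adjusted p = 0.0909), Apobec3 by 0.24 (-0.27 to 0.76, adjusted p = 0.423) and Mx2 by -0.28 (-0.92 to 0.35, adjusted p = 0.458). At an unadjusted p under 0.05, 8 members were higher and 0 lower. Mx1 was not called without LPS replicate 1, LPS replicate 2 or LPS+IFNb replicate 2 (adjusted p = 0.0517, 0.0678 and 0.0727), Adar was called without saline replicate 1 or saline replicate 2 (adjusted p = 0.00620 and 0.00618) and under median-ratio scaling (0.76, adjusted p = 0.0109), and Apobec3 turned to -0.04 without LPS replicate 1.

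LPS+IFNb against IFNb shows what LPS added 4 h after IFNb, with the IFNb libraries taken at 4 h and the LPS+IFNb libraries 8 h after IFNb, so the added LPS and the later time cannot be told apart. No member passed as higher in limma and 2 passed as lower: Cmpk2 (-0.56 ± 0.09, adjusted p = 0.00530) and Eif2ak2 (-0.23 ± 0.07, adjusted p = 0.0417). At an unadjusted p under 0.05, Isg20 was higher and Cmpk2, Eif2ak2 and Samhd1 were lower. The median member difference was -0.17, against -0.30 over all genes, of which 8.76% were higher and 30.5% lower; median-ratio scaling changed these shares to 12.7% and 10.5%. Isg20 differed by 0.27 (95% interval 0.00 to 0.53, adjusted p = 0.0976), Mx2 by 0.43 (-0.21 to 1.06, adjusted p = 0.239) and Apobec3 by 0.42 (-0.09 to 0.94, adjusted p = 0.162). Mx1, Rsad2, Bst2, Adar and Samhd1 lay between -0.34 and -0.14, with adjusted p of 0.0818 to 0.354. Under median-ratio scaling no member passed as lower, 3 passed as higher (Isg20 at 0.60, Mx2 at 0.76 and Apobec3 at 0.75, with adjusted p = 0.0238, 0.0420 and 0.0250), and Cmpk2 was at -0.23 (adjusted p = 0.230). Eif2ak2 was called in none of the fits without an LPS, IFNb or LPS+IFNb library (adjusted p of 0.0632 to 0.158) and turned to 0.09 under median-ratio scaling. Without saline replicate 1 or saline replicate 2, Mx2 passed as higher (adjusted p = 0.0244 and 0.0244), and Adar (adjusted p = 0.0175 and 0.0176) and Samhd1 (adjusted p = 0.0411 and 0.0407) passed as lower. Cmpk2 and Adar were the members whose difference stayed negative under every setting tried.

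**Figure D3:**
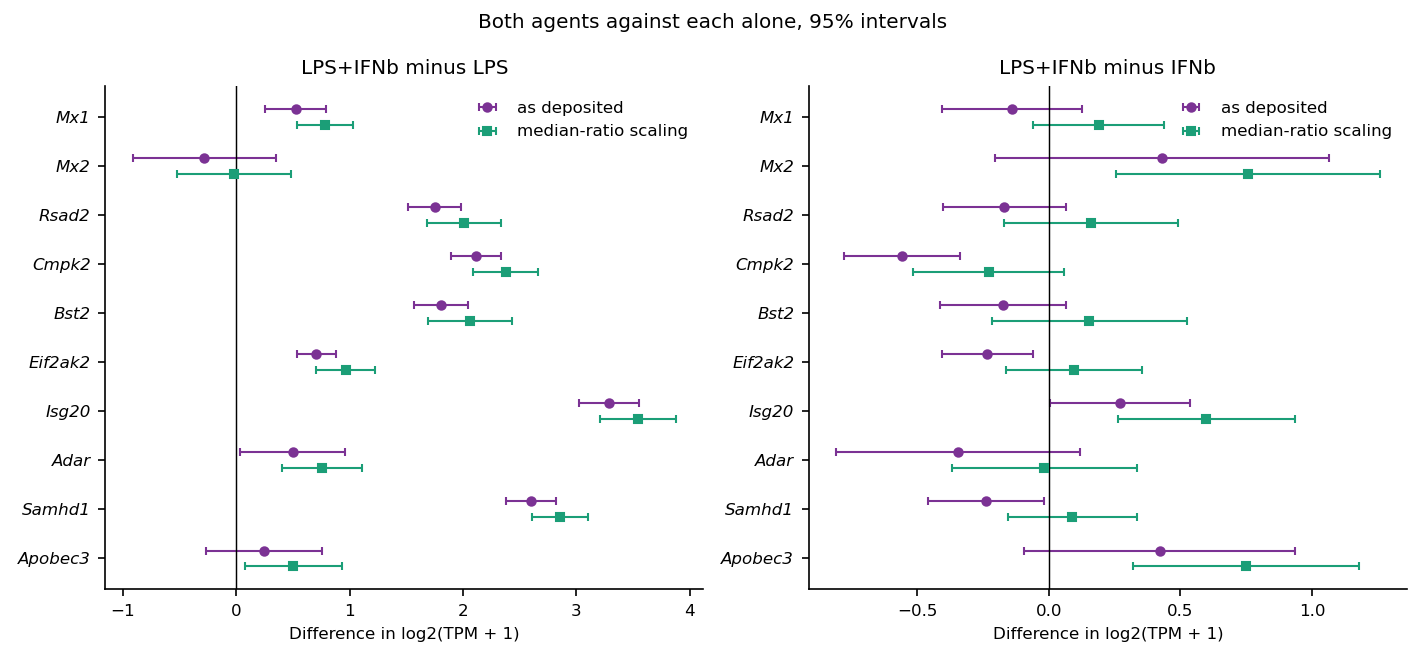
Differences in log2(TPM + 1) with 95% intervals for LPS+IFNb minus LPS on the left and LPS+IFNb minus IFNb on the right, from the TPM as deposited (circles) and after median-ratio scaling (squares). On the left Isg20, Samhd1, Cmpk2, Bst2 and Rsad2 lie well above 0 under both scalings, and on the right the members lie near 0 with signs that depend on the scaling for 5 of them.

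The interaction asks whether the LPS+IFNb level equals the sum of the 2 separate log2 changes, and it was negative for all 10 members. It ranged from -7.28 (Mx2) to -0.82 (Samhd1), with a median of -3.07 against 0.09 over all genes, of which 3.51% were higher and 4.45% lower (1.71% and 4.54% after median-ratio scaling). Mx1, Mx2, Rsad2 and Cmpk2 lay between -7.28 and -6.57, and Bst2, Eif2ak2, Isg20, Adar, Apobec3 and Samhd1 between -3.22 and -0.82. Both agents together left each member within 67.9% to 135% of its mean TPM with IFNb alone. Samhd1 (adjusted p = 0.0146) was not called without LPS replicate 1, IFNb replicate 1, IFNb replicate 2 or LPS+IFNb replicate 1 (adjusted p = 0.0624, 0.0607, 0.0690 and 0.0640). Apobec3 (adjusted p = 0.0139) was not called without IFNb replicate 1, IFNb replicate 2, LPS+IFNb replicate 1 or LPS+IFNb replicate 2 (adjusted p = 0.0637, 0.0524, 0.0527 and 0.0616).

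The deposited values are per transcript, and the members hold 59 transcripts in all, of which 51 passed the same filter and were tested among 33346. Against saline, 42 of the 51 rose with LPS and 43 with IFNb, none fell, and 7.95% and 7.85% of all transcripts rose while 16.0% and 13.7% fell. With LPS+IFNb 46 rose and 0 fell over saline, where 10.5% of all transcripts rose and 28.9% fell. Comparing LPS with IFNb, 3 member transcripts were higher and 19 lower, where 7.66% and 9.48% of all transcripts were. Comparing LPS+IFNb with LPS, 18 were higher and 0 lower (4.48% and 5.94% of all transcripts). Comparing LPS+IFNb with IFNb, 0 were higher and 2 lower (3.98% and 6.80% of all transcripts), the 2 being Cmpk2-201 and Samhd1-201. The interaction was negative for 23 and positive for 0 (1.78% and 0.507% of all transcripts). Kallisto divides reads between transcripts that share exons, so levels of overlapping transcripts depend on each other and are less certain than the gene sums. Whether strand was used is not given in the sources used here.

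Apobec3 is the member whose transcripts disagreed most with its gene sum. The retained-intron transcript Apobec3-208 (1693 bases, chromosome 15, 79892449 to 79896982, the 5′ end of the gene) had 165 and 110 TPM with LPS+IFNb, 147 and 257 TPM with LPS and 54.4 and 45.8 TPM with IFNb, against 21.4 and 36.7 TPM with saline. It rose by 2.75 with LPS (adjusted p = 0.00435), differed by 0.81 with IFNb (adjusted p = 0.173) and was higher with LPS than with IFNb by 1.94 (adjusted p = 0.0165). The other 16 Apobec3 transcripts summed to 208 and 237 TPM with LPS+IFNb, 102 and 113 TPM with LPS and 224 and 213 TPM with IFNb, against 28.6 and 31.8 TPM with saline. Without this transcript the LPS libraries lay close together and below those of both other stimulated groups, while the LPS+IFNb and IFNb libraries overlapped. Retained-intron transcripts made up 51.4% of Apobec3 TPM with LPS+IFNb, 76.3% with LPS and 29.3% with IFNb, against 59.3% with saline. Among the protein-coding transcripts, Apobec3-201 (coding length 891 bases) rose by 2.64 with IFNb (adjusted p = 0.000977) and differed by 0.63 with LPS (adjusted p = 0.106). Apobec3-217, with an annotated coding part of 453 bases, rose by 3.57 with IFNb (adjusted p = 0.000597) and by 1.90 with LPS (adjusted p = 0.00631).

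When only protein-coding transcripts were summed and rescaled, 11458 genes and 9 members were tested, Mx2 being left out. All 9 rose over saline with LPS (13.0% of all genes higher, 50.5% lower), with IFNb (13.6% and 46.1%) and with LPS+IFNb (15.6% and 60.8%). Of the 9, 8 were higher with LPS+IFNb than with LPS (12.2% of all genes higher, 29.0% lower), 3 were lower with LPS+IFNb than with IFNb (9.58% of all genes higher, 38.5% lower) and 8 were lower with LPS than with IFNb (18.3% of all genes higher, 25.7% lower). The interaction was negative for all 9, where 5.60% of all genes were higher and 5.14% lower. The gene that changed most under this sum was Apobec3. It then stood at 183 and 201 TPM with LPS+IFNb, 77.0 and 72.6 TPM with LPS and 229 and 212 TPM with IFNb, against 26.6 and 22.6 TPM with saline. Its difference in LPS against IFNb was -1.55 ± 0.10 (adjusted p = 3.72e-05), in place of 0.18, and in LPS+IFNb against LPS it was 1.35 ± 0.10 (adjusted p = 0.000191), in place of 0.24. Mx1 changed the other way, to -0.21 (95% interval -1.11 to 0.68, adjusted p = 0.687) in LPS against IFNb and 0.04 (-0.86 to 0.93, adjusted p = 0.945) in LPS+IFNb against LPS. These intervals are wide, and the libraries of Mx1 lay far apart in this sum, at 151 and 346 TPM with LPS+IFNb. Its transcript Mx1-204, of 481 bases, was listed at 0 and 95.2 TPM in those libraries before rescaling. The 2 Mx1 differences are therefore not well determined here. Adar passed in LPS+IFNb against LPS (0.68 ± 0.13, adjusted p = 0.00636) and as lower in LPS+IFNb against IFNb (-0.40 ± 0.13, adjusted p = 0.0394). Samhd1 rose by 0.33 ± 0.07 with LPS over saline (adjusted p = 0.00576), less than in the gene sum.

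**Figure D4:**
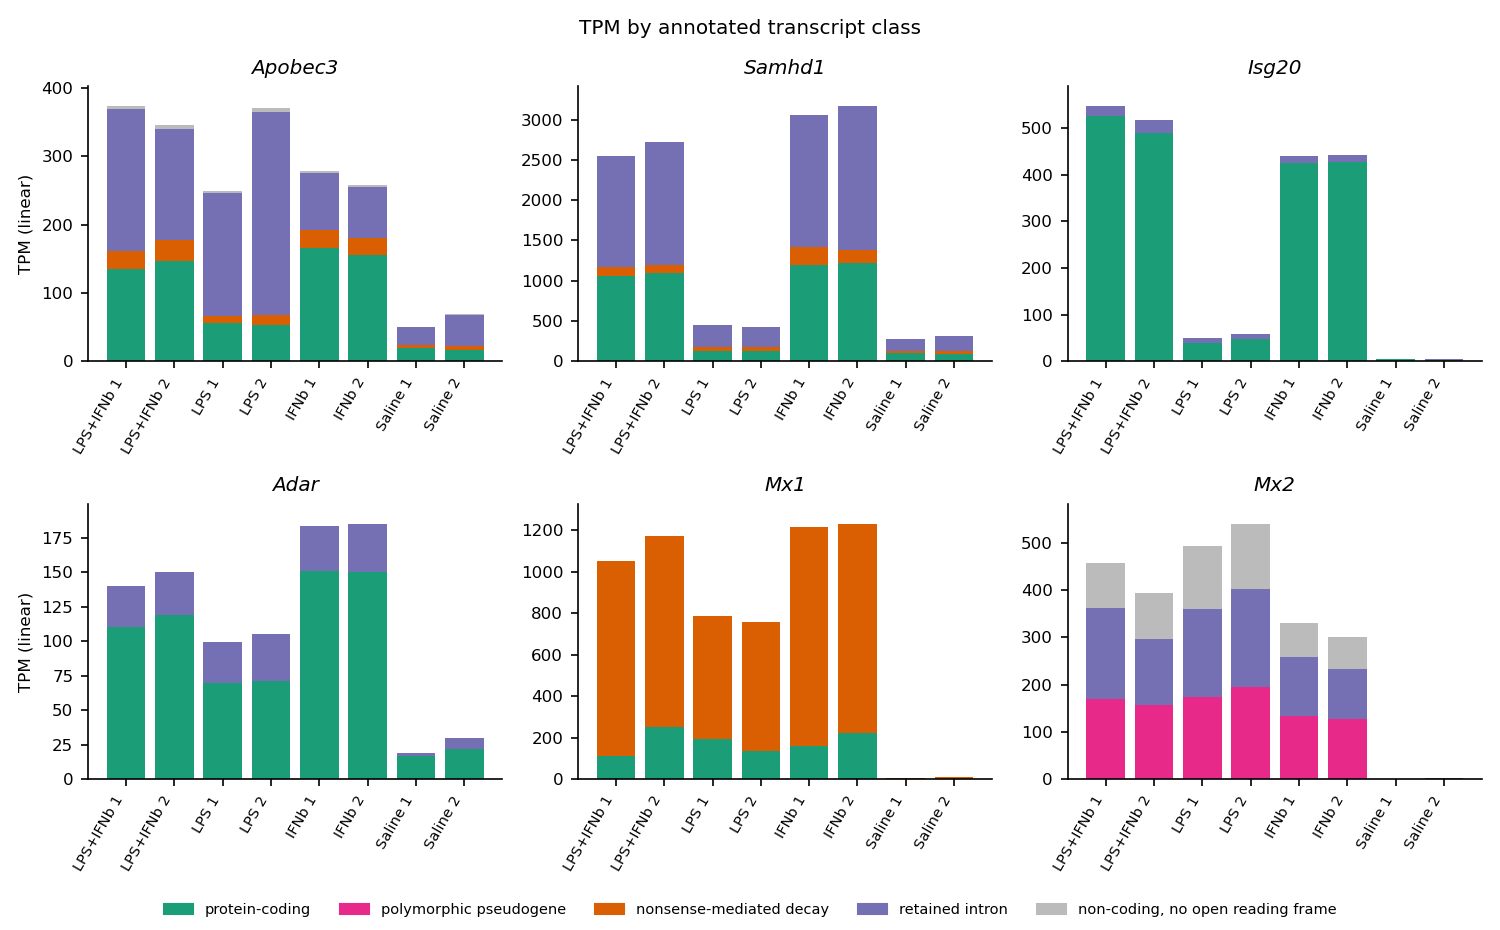
TPM of 6 members in each library on linear axes, stacked by the annotated class of the transcript (protein-coding, polymorphic pseudogene, nonsense-mediated decay, retained intron, and non-coding with no open reading frame). The protein-coding part of Apobec3 is larger with IFNb than with LPS although the whole bars overlap in height, and Mx1 and Mx2 consist mostly or wholly of classes other than protein-coding.

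Mx1 mRNA was mostly assigned to transcripts annotated as targets of nonsense-mediated decay, 83.9% with LPS+IFNb, 78.8% with LPS and 84.4% with IFNb, against 91.1% with saline. The largest, Mx1-205, has 11 exons, against 15 in the full-length Mx1-201, and had 684 and 647 TPM with LPS+IFNb, 402 and 414 TPM with LPS and 778 and 727 TPM with IFNb, against 0.0390 TPM and a value listed at 0 with saline. Mx1-201 itself had 62.8 and 92.6 TPM with LPS+IFNb, 116 and 100 TPM with LPS and 85.8 and 92.4 TPM with IFNb, against 0.0922 and 0.540 TPM with saline. The lower Mx1 level with LPS than with IFNb thus lay in Mx1-205 (-0.88, adjusted p = 0.000977) and Mx1-203 (-0.49, adjusted p = 0.0446), while Mx1-201 differed by 0.27 (adjusted p = 0.518). For Mx2 the annotated protein-coding transcript Mx2-201 was listed at 0 in 7 libraries and at 0.877 TPM in LPS+IFNb replicate 2. The polymorphic pseudogene Mx2-202, of like length (2421 bases, against 2417 for Mx2-201), an open reading frame that is intact in some strains only, had 168 and 154 TPM with LPS+IFNb, 174 and 194 TPM with LPS and 133 and 126 TPM with IFNb, against 0.663 and 0.614 TPM with saline. Mx2-202 was higher with LPS than with IFNb by 0.50 (adjusted p = 0.0208), and so was the non-coding Mx2-203 by 0.94 (adjusted p = 0.0402).

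Adar has an upstream start, known for a shorter constitutive protein, and a downstream start, known for a longer interferon-inducible protein. Adar-202, from the upstream start (chromosome 3, 89715022), was at 4.44 TPM or less in every library and passed in no comparison. Its annotated coding part is 2790 bases. The 4 transcripts from the downstream start (chromosome 3, 89730748), which include Adar-203 with a coding part of 3534 bases and Adar-201 with 3456 bases, summed to 111 and 119 TPM with LPS+IFNb, 64.9 and 70.5 TPM with LPS and 149 and 149 TPM with IFNb, against 16.5 and 20.5 TPM with saline. The downstream start therefore accounted for nearly all protein-coding Adar TPM in saline as well as after stimulation. Adar-203 rose by 1.28 with LPS (adjusted p = 0.00503) and by 2.77 with IFNb (adjusted p = 0.000255), and was lower with LPS than with IFNb by 1.48 (adjusted p = 0.00291). The ISRE match with 1 mismatch shown for Adar (chromosome 3, 89730745 to 89730754) spans this annotated start.

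Isg20 has 4 annotated protein-coding transcripts, of which Isg20-202 and Isg20-203 made up most of the level after IFNb. Isg20-203 had 352 and 329 TPM with LPS+IFNb, 20.1 and 27.6 TPM with LPS and 263 and 270 TPM with IFNb, against 2.90 TPM and a value listed at 0 with saline. Isg20-202 had 148 and 132 TPM with LPS+IFNb, 5.77 and 7.04 TPM with LPS and 138 and 138 TPM with IFNb, and was listed at 0 in both saline libraries. Isg20-202 was lower with LPS than with IFNb by 4.24 (adjusted p = 3.03e-05), while Isg20-204 differed by -0.66 (adjusted p = 0.0967) and Isg20-205, a retained-intron transcript, by -0.39 (adjusted p = 0.188). Isg20-201, whose start lies next to the NF-kB motif shown above, stayed at 8.80 TPM or less and did not pass in any comparison. The 3 transcripts Isg20-201, Isg20-202 and Isg20-203 share a coding length of 543 bases and differ in their starts.

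Samhd1 transcripts parted into some that rose with LPS and some that did not pass. Samhd1-201, the full-length form (coding length 1974 bases), had 370 and 375 TPM with LPS+IFNb, 68.6 and 73.3 TPM with LPS and 513 and 487 TPM with IFNb, against 45.7 and 49.6 TPM with saline, a rise of 0.56 with LPS (adjusted p = 0.00584). Samhd1-206 (coding length 1891 bases) had 661 and 685 TPM with LPS+IFNb, 40.3 and 27.1 TPM with LPS and 632 and 690 TPM with IFNb, against 51.1 and 35.9 TPM with saline. Its difference with LPS was -0.36 (adjusted p = 0.298) and its rise with IFNb was 3.91 (adjusted p = 0.000150). Samhd1-210, a retained-intron fragment of 681 bases, had the highest TPM of the gene, 1185 and 1154 with IFNb against 93.2 and 110 with saline. Under LPS the largest rises were those of the low-level Samhd1-208 (1.94, adjusted p = 0.000357) and Samhd1-203 (1.81, adjusted p = 0.00686).

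For each member, the 2 other genes with the nearest pattern were found as those with the smallest root mean square difference in log2(TPM + 1) over the 8 libraries after centring each gene, among 7589 candidates. The smallest differences were those of Eif2ak2 with Parp9 (0.0640) and Samd9l (0.104), and of Bst2 with Lgals9 (0.0855) and Sp100 (0.120). The measure is not scaled to a gene's own range, so its size does not rank the members by how good their matches are. The log2 range over the libraries was 3.64 for Eif2ak2, 3.52 for Bst2 and 6.91 for Isg20. It was 7.49 for Mx1, 8.21 for Mx2, 8.36 for Rsad2 and 9.02 for Cmpk2. Isg20 was nearest to Gbp2 (0.149) and Slfn4 (0.288), Samhd1 to P2ry14 (0.180) and Epsti1 (0.181), Adar to Nod1 (0.199) and Ogfr (0.214), and Apobec3 to Clic4 (0.226) and Tmem243 (0.229). Cmpk2 was nearest to Ifit2 (0.363) and Ifit3 (0.503), Rsad2 to Isg15 (0.444) and Trim30c (0.491), Mx1 to Oasl1 (0.423) and Gbp5 (0.430), and Mx2 to Gbp5 (0.357) and Ccl2 (0.591). No member was among the 2 listed for another, because members were not candidates. As an example of a close match, Lgals9 had 696 and 691 TPM with LPS+IFNb, 168 and 176 TPM with LPS and 758 and 780 TPM with IFNb, against 75.4 and 67.4 TPM with saline, beside the Bst2 values above.

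Nearly all other antiviral interferon-stimulated genes rose too. Of 32 tested, 31 rose with LPS, with a median of 2.90, and 31 rose with IFNb, with a median of 4.75. Of the 32, 26 were lower with LPS than with IFNb and 0 were higher. Over all genes 12.8% rose with LPS and 13.0% with IFNb, and 22.1% were lower and 16.6% higher with LPS than with IFNb. Among the receptor and ISGF3 genes, 9 of 11 rose with LPS and 8 of 11 with IFNb, including Stat2, an ISGF3 subunit (3.39 ± 0.08 with LPS and 4.21 ± 0.08 with IFNb), and Usp18, a brake on the receptor (4.29 ± 0.10 and 6.29 ± 0.10). In LPS+IFNb against IFNb, Stat2 fell by 0.72 ± 0.08 (adjusted p = 0.00149), while Ifnar1 was higher by 1.23 ± 0.09 (adjusted p = 0.000308). These lists, like the members, were chosen with results of these data known.

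The family relatives of the members changed in shares near those of all genes. Of 18 genes from the same families (dynamins, the other eIF2 alpha kinases, other adenosine and cytidine deaminases, the nucleotide kinase Cmpk1 and exonucleases like Isg20), 12 were tested, and 1 rose and 6 fell with LPS while 0 rose and 6 fell with IFNb. Over all genes 12.8% rose and 41.3% fell with LPS, and 13.0% rose and 38.6% fell with IFNb, so these counts say nothing particular to the relatives. After median-ratio scaling 2 rose and 3 fell with LPS, and 1 rose and 1 fell with IFNb. Apobec1, the deaminase that edits apolipoprotein B mRNA, had 170 and 180 TPM with LPS+IFNb, 136 and 114 TPM with LPS and 511 and 517 TPM with IFNb, against 706 and 703 TPM with saline. It fell by 2.49 ± 0.10 with LPS (adjusted p = 6.83e-06) and still fell after scaling (-2.02, adjusted p = 4.36e-05), whereas its fall of -0.45 ± 0.10 with IFNb (adjusted p = 0.00855) did not pass after scaling (-0.06, adjusted p = 0.778). Apobec1 was thus above the Apobec3 gene sum in saline and below it with LPS, an order under LPS that was not seen without Apobec3-208. Eif2ak4, the eIF2 alpha kinase that senses amino acid shortage, fell by 1.18 ± 0.16 with IFNb (adjusted p = 0.00152), also after scaling (-0.83, adjusted p = 0.00644). Cmpk1, the cytosolic relative of Cmpk2, differed by -0.22 with LPS (95% interval -0.48 to 0.04, adjusted p = 0.128) and by 0.22 with IFNb (-0.05 to 0.48, adjusted p = 0.142).

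Around PKR, 11 genes of eIF2 alpha phosphorylation were tested, of which 3 rose and 3 fell with LPS and 1 rose and 6 fell with IFNb (5 and 1, and 2 and 1, after median-ratio scaling). The shares over all genes were 12.8% higher and 41.3% lower with LPS, and 13.0% higher and 38.6% lower with IFNb. Ppp1r15a, which recruits the phosphatase that reverses PKR's action, had 65.4 and 59.8 TPM with LPS+IFNb, 46.2 and 44.3 TPM with LPS and 10.4 and 8.82 TPM with IFNb, against 12.8 and 15.6 TPM with saline. It rose by 1.61 ± 0.13 with LPS (adjusted p = 0.000183) and in LPS+IFNb against IFNb by 2.59 ± 0.13 (adjusted p = 5.41e-05), where Eif2ak2 differed by -0.23 as given above. Ppp1r15b, its constitutive relative, rose by 1.48 ± 0.12 with LPS (adjusted p = 0.000187) and by 1.27 ± 0.12 with IFNb (adjusted p = 0.000364). Prkra, an activator of PKR, fell by 1.16 ± 0.13 with LPS (adjusted p = 0.000642) and by 0.95 ± 0.13 with IFNb (adjusted p = 0.00155), falls that passed after scaling as well (-0.72 and -0.58, adjusted p = 0.00998 and 0.0262).

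Samhd1 and Cmpk2 act on the nucleotide pool, and 14 other genes of nucleotide supply were tested, of which 3 rose and 6 fell with LPS and 3 rose and 4 fell with IFNb (3 and 3, and 4 and 2, after median-ratio scaling). Over all genes 12.8% rose and 41.3% fell with LPS, and 13.0% rose and 38.6% fell with IFNb. The counts of falls were near or below those shares and say nothing particular to these genes. The same 3 genes rose with LPS and with IFNb: Dck, which phosphorylates salvaged deoxynucleosides, by 1.05 ± 0.14 and 4.04 ± 0.14; Nt5c3, a pyrimidine nucleotidase, by 2.46 ± 0.10 and 4.22 ± 0.10; and Pnp, which splits purine nucleosides, by 2.30 ± 0.11 and 4.33 ± 0.11. Dck had 98.5 and 115 TPM with LPS+IFNb, 25.6 and 22.5 TPM with LPS and 189 and 206 TPM with IFNb, against 12.4 and 9.88 TPM with saline. Its LPS mean was 12.2% of its IFNb mean, near the 14.0% of Samhd1. Tk2, the mitochondrial thymidine kinase, fell by 1.64 ± 0.12 with LPS (adjusted p = 0.000120) and by 0.86 ± 0.12 with IFNb (adjusted p = 0.00169). Rrm1, the large subunit of ribonucleotide reductase, which makes deoxynucleotides, fell by 1.01 ± 0.13 with LPS (adjusted p = 0.00109).

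Of 16 tested genes that sense or clear nucleic acids, 3 of which (Ifih1, Ddx58 and Zbp1) are also in the list of 32, 9 rose and 4 fell with LPS and 10 rose and 3 fell with IFNb (9 and 1, and 11 and 2, after median-ratio scaling). Among all genes 12.8% were higher and 41.3% lower with LPS, and 13.0% higher and 38.6% lower with IFNb. Trex1, the exonuclease that clears cytosolic DNA, had 445 and 421 TPM with LPS+IFNb, 367 and 375 TPM with LPS and 241 and 250 TPM with IFNb, against 14.7 and 13.5 TPM with saline. Unlike Isg20, Trex1 was higher with LPS than with IFNb, by 0.59 ± 0.08 (adjusted p = 0.00132). Trex1 was also higher with LPS+IFNb than with IFNb, by 0.82 ± 0.08 (adjusted p = 0.000750), where Isg20 differed by 0.27 as given above. Tlr3, the endosomal sensor of double-stranded RNA, had 103 and 96.4 TPM with LPS+IFNb, 10.9 and 9.34 TPM with LPS and 152 and 142 TPM with IFNb, against 3.76 and 3.43 TPM with saline. Mavs, the mitochondrial adaptor of the RNA sensors Ifih1 and Ddx58, fell by 1.09 ± 0.16 with LPS (adjusted p = 0.00168) and by 1.20 ± 0.16 with IFNb (adjusted p = 0.00129).

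The summed markers of monocytes moved with the members, though not every marker in the sum did. Their 4 markers (Ly6c2, Ccr2, Vcan and Plac8) summed to 479 and 534 TPM with LPS+IFNb, 136 and 150 TPM with LPS and 558 and 681 TPM with IFNb, against 71.0 and 63.3 TPM with saline, the order of groups seen for most members. Within the list Plac8, Vcan and Ly6c2 were higher in the IFNb than in the saline libraries, while Ccr2, the chemokine receptor that defines inflammatory monocytes, was lower: 5.34 and 8.02 TPM with LPS+IFNb, 5.45 and 4.15 TPM with LPS and 23.4 and 22.8 TPM with IFNb, against 34.1 and 31.5 TPM with saline. Ly6c2 and Plac8 took the order of the sum. Vcan did not, being higher with LPS+IFNb (229 and 196 TPM) than with IFNb (173 and 150 TPM). The part of monocytes in the members' values was not tested. B cell markers summed to 102 and 90.4 TPM with LPS+IFNb, 87.3 and 97.6 TPM with LPS and 113 and 108 TPM with IFNb, against 143 and 162 TPM with saline. T and NK cell markers summed to 5.16 and 9.52 TPM with LPS+IFNb, 9.90 and 10.7 TPM with LPS and 5.63 and 12.6 TPM with IFNb, against 20.7 and 16.4 TPM with saline. Both sums were lower in every stimulated library than in saline, the opposite direction to the members. The median log2 difference from saline over all genes was also negative, at -0.38 (LPS), -0.37 (IFNb) and -0.62 (LPS+IFNb), so lower sums are not particular to these markers. The sum of conventional dendritic cell markers, at 5.54 to 10.6 TPM in the stimulated libraries, against 3.05 and 3.31 TPM with saline, was higher but low throughout. Within that list only Xcr1 was higher than saline in every stimulated library. Clec9a was lower than saline with LPS, and Zbtb46 with IFNb. Flt3 had 0.195 and 0.127 TPM with LPS+IFNb, 0.920 and 1.14 TPM with LPS and 0.202 and 0.0898 TPM with IFNb, against 1.03 and 1.32 TPM with saline. Neutrophil markers summed to 154 to 223 TPM over the 8 libraries. The part of these cells in the members' values was not tested either.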

How the data were processed

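Macrophage RNA was sequenced in 8 libraries, 2 per group, with groups and replicate numbers taken from the sample labels. The authors deposited TPM for 88198 Ensembl transcripts per library, and the submitters' processing notes name kallisto and mm10. The kallisto version, options and strand setting were not given in the sources used here. TPM keeps no depth, so precision rests on the 2 libraries of each group, and a value of 0 may be a failed estimate. Transcripts were matched to GENCODE M21 (GRCm38), 86119 in all, and summed to 30284 genes; the 2079 unmatched took 1.01% to 1.95% of TPM. The 13009 genes reaching 1 TPM in 2 or more libraries were fitted as log2(TPM + 1) with limma-trend (limma 3.58.1, R 4.3.3), 1 mean per group and all 8 libraries (4 residual and 2.54 prior degrees of freedom), with two-sided p and Benjamini-Hochberg adjustment. Transcripts were fitted likewise. The scale understates changes of low genes. The model was tested on simulated data. Members and lists were chosen with earlier results of these data known. Of each list, up to 3 genes per direction and comparison were eligible to be named, in order of adjusted p; some are not reported here. The alternatives tried were median-ratio and upper-quartile scaling, a pseudocount of 0.1, no filter, a minimum of 5 TPM, only the groups compared, a replicate block, each library left out, an adjusted p under 0.01 and protein-coding transcripts only; for motifs, 1 mismatch.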

Additional observations from a re-analysis of the deposited data

Results flagged for a closer look

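The effect of LPS differed between cells given IFNb first and cells not given it, by the test of the interaction itself, for each of the 10 members. Over all genes the interaction was negative for 4.45% and positive for 3.51%. It was also negative for 31 of the 32 other antiviral interferon-stimulated genes and 7 of the 11 receptor and ISGF3 genes. Samhd1 and Apobec3 (adjusted p = 0.0146 and 0.0139 in limma) did not pass under 0.01, and their calls were lost in some fits with a library left out. On the log2(TPM + 1) scale the interaction was -6.82 for Mx1, -7.28 for Mx2, -6.57 for Rsad2 and -6.81 for Cmpk2. It was -3.22 for Isg20, -2.92 for Eif2ak2, -2.40 for Adar, -1.93 for Apobec3, -1.56 for Bst2 and -0.82 for Samhd1. In plain terms LPS alone raised each mRNA over saline, and after IFNb the same LPS exposure left each mRNA at 67.9% to 135% of its mean TPM with IFNb alone. The LPS+IFNb libraries were taken later after IFNb than the IFNb libraries, and that difference in time cannot be told apart from the added LPS.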

How the results depend on the processing

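In LPS against saline, IFNb against saline and LPS+IFNb against saline all 10 members stayed higher under each alternative run, except that Mx2 could not be tested among protein-coding transcripts only. Some counts moved by less than 1.5 times: from 7 to between 6 and 8 for members higher in LPS+IFNb against LPS, from 8 to 7 for members lower in LPS against IFNb and from 10 to as few as 8 for members with a negative interaction. Larger moves were seen in LPS+IFNb against IFNb and for members higher in LPS against IFNb. In LPS+IFNb against IFNb, 0 members were higher in the values as reported, against 3 with median-ratio scaling, 2 with upper-quartile scaling and 3 with only the groups compared, and 0 to 1 with each library left out; 2 members were lower as reported, against 1 at an adjusted p under 0.01, 0 with median-ratio scaling, 0 with upper-quartile scaling and 1 to 4 with each library left out. In LPS against IFNb, 0 members were higher as reported, against 1 with median-ratio scaling, 1 with upper-quartile scaling, 1 with only the groups compared and 0 to 1 with each library left out. The sign in LPS+IFNb against IFNb turned for Mx1 (0.19 with median-ratio and 0.17 with upper-quartile scaling), Rsad2 (0.16 and 0.15), Bst2 (0.15 and 0.14), Eif2ak2 (0.094 and 0.079) and Samhd1 (0.090 and 0.075), since scaling adds about the same amount to every gene. With protein-coding transcripts only, Apobec3 turned to -0.20 in LPS+IFNb against IFNb and to -1.55 in LPS against IFNb. With each library left out in turn, Apobec3 ranged from -0.041 to 0.53 in LPS+IFNb against LPS and from -0.11 to 0.46 in LPS against IFNb. Among transcripts, the ranges that crossed 0 in LPS+IFNb against IFNb were -0.54 to 0.11 (Adar-201), -0.013 to 0.39 (Adar-207), -0.035 to 0.091 (Samhd1-206) and -0.54 to 0.029 (Samhd1-209). The others were Adar-202 in LPS against IFNb (-0.15 to 1.29), Samhd1-209 in LPS against saline (-0.15 to 0.40) and Samhd1-205 in LPS+IFNb against LPS (-0.24 to 0.22), and none of these 7 was called in the values as reported. Allowing 1 mismatch, ISRE matches were in 35.4% of all windows and 69.2% of member windows, GAS matches in 71.4% and 76.9%, and NF-kB matches in 20.95% and 30.77%. Over all genes, the counts higher and lower in the comparisons with saline ranged over the alternatives from 1223 to 2601 and 2167 to 5789 for LPS (1664 and 5368 as reported), from 1293 to 2321 and 1829 to 5286 for IFNb (1697 and 5020), and from 1636 to 3459 and 3234 to 7134 for LPS+IFNb (1980 and 7042). They ranged from 893 to 1955 and 1288 to 3452 for LPS+IFNb against LPS (1400 and 3129), from 716 to 1692 and 1363 to 4412 for LPS+IFNb against IFNb (1140 and 3967), from 1311 to 2305 and 1833 to 3035 for LPS against IFNb (2158 and 2871), and from 95 to 642 and 306 to 612 for the interaction (457 and 579). What caused the other changes was not tested. TPM gives no depth, so no limit of detection can be set.

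The replicate numbers were not treated as pairing the samples: same-numbered libraries had deviations correlated at -0.156 to 0.141 across genes. With the replicate block, 1 member was lower in LPS+IFNb against IFNb in place of 2, Eif2ak2 at -0.23 having an adjusted p of 0.0684; the block changed no other member's call.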
